A study of Mus musculus and Homo sapiens with 9 samples.

Results

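The DNA glycosylase genes were examined for binding of thymine DNA glycosylase (TDG) and of the transcription factor p53 in mouse melanoma cells by chromatin immunoprecipitation and sequencing (ChIP-seq). The set consisted of 10 named genes, Tdg, Mbd4, Ung, Smug1, Ogg1, Mutyh, Neil1, Neil2, Neil3 and Nthl1, and all 10 were found among 21887 protein-coding genes placed on mouse chromosomes. A TDG peak was assigned to a gene when its summit lay inside the gene or within 1 kb of either end, and a p53 peak when any of its bases lay within 10 kb of the gene. Peak lists of 2 of the 9 samples of the series were used, each from 1 library of B16 melanoma cells that carry an HA tag at the Tdg gene (genotype Tdg HA knockin). Chromatin was precipitated with an antibody against HA, which recognises tagged TDG, for the first list and with an antibody against p53 for the second. No treatment of these cells is given in the labels, and neither the tagged end of TDG nor whether the line is 1 clone is given in the sources used here. A further 7 samples were not analysed here; among them are the HA antibody in WT cells, the p53 antibody in Trp53 KO cells, an IgG sample and the input. Whether a peak depends on the tag or on p53 was therefore not tested, and no value below has a replicate.

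DNA glycosylases start base excision repair. Each cuts a damaged or mispaired base from the sugar backbone, and an endonuclease, a polymerase and a ligase then refill the gap. TDG and MBD4 remove thymine that faces guanine, the product of deaminated 5-methylcytosine, and TDG also removes the oxidised methylcytosines made by TET enzymes, a step of active DNA demethylation. UNG and SMUG1 remove uracil, OGG1 removes 8-oxoguanine, MUTYH removes adenine that faces 8-oxoguanine, and NTHL1 and the NEIL enzymes remove oxidised pyrimidines and related lesions.

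TDG peaks were found at 3 of the 10 glycosylase genes, namely Tdg, Mbd4 and Ogg1, and Tdg carried by far the strongest. The same rule assigned a TDG peak to 14.8% of all protein-coding genes. The exact 95% interval of the members' share ran from 6.67 to 65.2%, so 10 genes are too few to set the list apart from that background. Ung, Smug1, Mutyh, Neil1, Neil2, Neil3 and Nthl1 had none. The Mbd4 peak also lay at an end of a neighbouring gene, Ift122. Mbd4 and Ogg1 are both on chromosome 6, where the rule assigned a TDG peak to 30.9% of protein-coding genes. Members ranged from 5901 to 52199 bases in length, and the rule assigned a TDG peak to 17.2% of protein-coding genes within that range.

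The promoter sequences are shown for the 3 genes with a TDG peak, and for Nthl1 and Ung as genes without one, with more and fewer CG dinucleotides than those 3. Each line gives the 250 bases before the annotated transcription start from RefSeq (GRCm38.p6, whose coordinates on placed chromosomes are those of mm10), written along the strand of the gene. Capitals mark matches, on either strand, to any of the 9 motifs that were searched, and these matches are described after the peaks. The windows are chr10:82629588-82629837 (plus strand) for Tdg, chr6:115853342-115853591 (minus strand) for Mbd4, chr6:113326726-113326975 (plus strand) for Ogg1, chr17:24632432-24632681 (plus strand) for Nthl1 and chr5:114130185-114130434 (plus strand) for Ung.
Tdg: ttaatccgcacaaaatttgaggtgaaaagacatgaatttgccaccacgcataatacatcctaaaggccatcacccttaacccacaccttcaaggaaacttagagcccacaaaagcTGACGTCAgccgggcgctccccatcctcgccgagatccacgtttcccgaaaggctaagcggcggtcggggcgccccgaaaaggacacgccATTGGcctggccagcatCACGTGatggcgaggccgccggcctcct
Mbd4: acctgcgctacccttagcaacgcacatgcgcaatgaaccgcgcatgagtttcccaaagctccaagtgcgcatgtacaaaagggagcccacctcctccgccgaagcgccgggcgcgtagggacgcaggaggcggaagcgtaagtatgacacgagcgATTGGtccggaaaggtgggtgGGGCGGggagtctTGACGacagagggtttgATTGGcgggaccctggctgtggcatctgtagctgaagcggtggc
Ogg1: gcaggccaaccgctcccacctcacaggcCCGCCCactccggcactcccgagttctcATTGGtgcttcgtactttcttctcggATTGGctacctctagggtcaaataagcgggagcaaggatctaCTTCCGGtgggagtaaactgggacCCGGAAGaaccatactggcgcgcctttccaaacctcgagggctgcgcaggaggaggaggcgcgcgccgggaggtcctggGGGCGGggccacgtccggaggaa
Nthl1: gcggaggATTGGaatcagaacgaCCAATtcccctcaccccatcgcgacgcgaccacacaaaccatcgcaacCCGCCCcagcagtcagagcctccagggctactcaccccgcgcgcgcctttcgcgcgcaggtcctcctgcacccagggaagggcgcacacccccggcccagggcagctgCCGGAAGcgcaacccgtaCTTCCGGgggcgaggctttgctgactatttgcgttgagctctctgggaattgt
Ung: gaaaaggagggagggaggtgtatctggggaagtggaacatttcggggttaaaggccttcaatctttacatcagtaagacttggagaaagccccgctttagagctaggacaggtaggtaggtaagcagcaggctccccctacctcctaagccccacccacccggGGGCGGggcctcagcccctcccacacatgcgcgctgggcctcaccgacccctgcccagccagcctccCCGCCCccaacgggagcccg

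The Tdg peak spanned 1883 bases (mm10, chromosome 10, 82629067 to 82630949) and its summit lay 17 bases downstream of the annotated start of the gene. It reached from 771 bases upstream of the start to 1111 bases downstream. Its deposited fold enrichment was 28.9 and its −log10 q was 132. This was the highest fold enrichment of all 3410 TDG peaks. The summit held 128 recovered reads, with an exact 95% Poisson interval of 107 to 152 reads that covers counting error only. Its local background was 3.13 scaled reads. The most common local background over the TDG peaks was 2.56 and was taken here as the genome-wide value. Which library set these backgrounds is not known, since the control library is not stated. The peak is in the gene that was altered to carry the tag, and the part of that alteration in it was not tested.

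The Mbd4 peak was 864 bases wide (chromosome 6, 115852975 to 115853838) and 6.18-fold enriched, with a −log10 q of 13.8. Its summit lay 297 bases upstream of the annotated Mbd4 start, 238 bases outside the gene. The peak still covered the start, since it reached 366 bases downstream of it. The upper end of Mbd4 is 21 bases from the lower end of Ift122, an intraflagellar transport gene, and the summit fell inside Ift122, 259 bases from that end. One peak therefore served both genes, and the list cannot say to which of them it belongs. The summit held 37 reads (interval 26.1 to 51.0) over a local background of 4.70 scaled reads.

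Ogg1 was the only member with more than 1 peak. The stronger peak (chromosome 6, 113326618 to 113327323) was 706 bases wide and 5.93-fold enriched, and its summit lay 14 bases downstream of the annotated start. It reached 358 bases upstream and 347 bases downstream of the start, and its summit held 31 reads (interval 21.1 to 44.0). The weaker peak (chromosome 6, 113333014 to 113333394) was 381 bases wide and 3.24-fold enriched. It lay inside the gene, 6341 bases downstream of the start, with its summit 807 bases from the lower end of the neighbouring kinase gene Camk1. Its −log10 q of 3.68 was close to the lowest of the whole list, 3.02. Its 27 reads (interval 17.8 to 39.3) were the fewest of the 4 member peaks. They stood over a local background of 7 scaled reads, the highest of the 4.

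**Figure D1:**
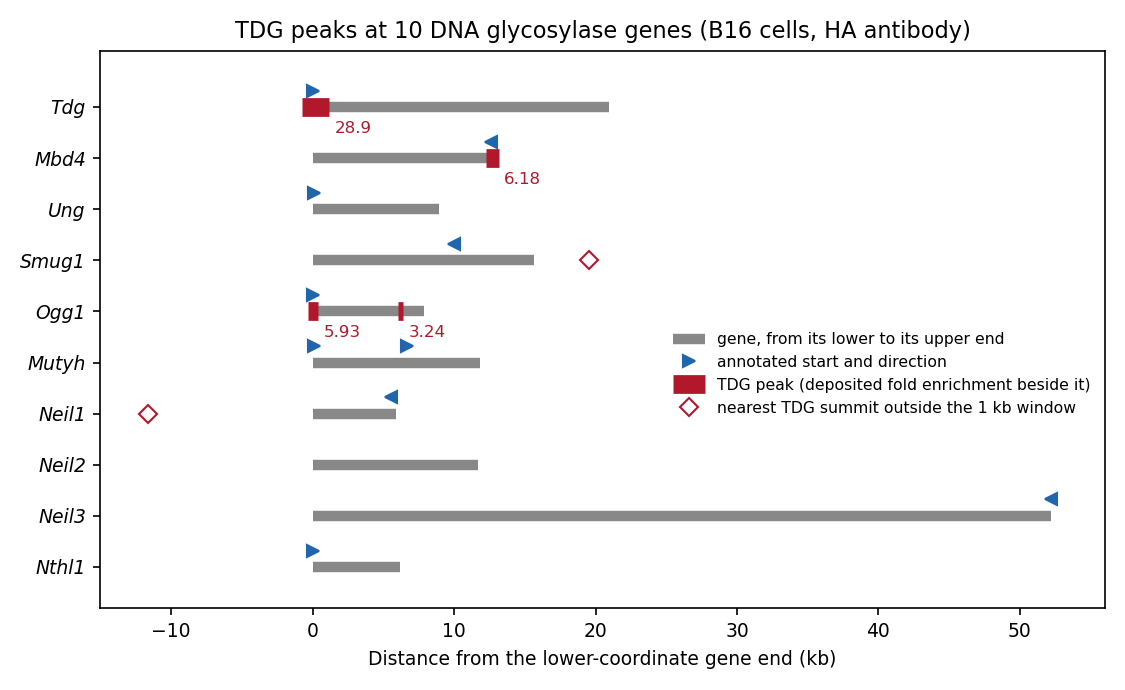
TDG peaks along the 10 glycosylase genes, each drawn as a grey bar from its lower to its upper end on a common axis in kb. Red bars are TDG peaks with their deposited fold enrichment, blue arrowheads are annotated starts pointing in the direction of transcription (none is drawn for Neil2), and open diamonds are the nearest TDG summits of Smug1 and Neil1, outside the 1 kb window. The peaks at Tdg (28.9), Mbd4 (6.18) and Ogg1 (5.93) cover the annotated start, and the 3.24-fold peak of Ogg1 lies in the gene body.

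Set against the rest of the list, the Tdg peak was higher and wider than the peaks of the other glycosylase genes. Its fold enrichment was 4.67 times that of Mbd4, 4.87 times that of the Ogg1 start peak and 8.90 times that of the Ogg1 body peak. It was 2.18, 2.67 and 4.94 times as wide as these peaks in the same order. In summit reads the ratio of Tdg to Mbd4 was 3.46, with an exact 95% interval of 2.38 to 5.13, the ratio to the Ogg1 start peak was 4.13 (2.77 to 6.33), and the ratio to the Ogg1 body peak was 4.74 (3.11 to 7.47). These intervals cover counting error within 1 library and do not describe the spread between cultures. All 3 intervals lie above 1. Those for Mbd4 and the Ogg1 start peak hold the ratio of the fold enrichments, and that for the Ogg1 body peak, which stood over a local background of 7 scaled reads against 3.13 at Tdg, ends below its fold ratio of 8.90.

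The peaks at Mbd4 and Ogg1 were ordinary by fold enrichment and broad by width. In fold enrichment the Mbd4 peak lay above 60.3% of all TDG peaks and the Ogg1 start peak above 52.3%, near the median of 5.74. In width they lay above 94.8% and 88.5% of all peaks, where the median was 420 bases. Among the 2290 peaks at ends of protein-coding genes the positions were alike: 57.0% and 48.8% of those peaks had a lower fold enrichment than Mbd4 and Ogg1, and 94.3% and 87.0% were narrower. The Ogg1 body peak was among the lowest of the list, above only 0.557% of the peaks in fold enrichment.

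The next highest TDG peaks after Tdg lay at Dop1b (14.6-fold), in Tsga10 (12.7-fold) and at Avl9 (12.7-fold), and they were narrower than the Tdg peak at 616, 1015 and 605 bases. Their summits held 55, 48 and 51 reads, less than 128 in each case. By width, Tdg ranked 4 among all peaks and 1 among peaks at gene ends. Gene-end peaks of the nearest width were those at the predicted gene Gm20783 (1750 bases, 8.33-fold), Fbxo42 (1680 bases, 6.82-fold) and Dazap2 (1557 bases, 10.7-fold). Only 85 TDG peaks were at least 1000 bases wide, and apart from Tdg the highest fold enrichment among them was 12.7. The 3 peaks wider than Tdg lay on chromosome 17 (3595 bases, 1.63-fold), on chromosome 1 (2228 bases, 4.63-fold) and on unplaced sequence (2172 bases, 8.34-fold), over local backgrounds of 205, 6 and 70.0 scaled reads. All 7 TDG peaks with more summit reads than Tdg stood over local backgrounds of 32 scaled reads or more, and none of them exceeded 8.34-fold.

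**Figure D2:**
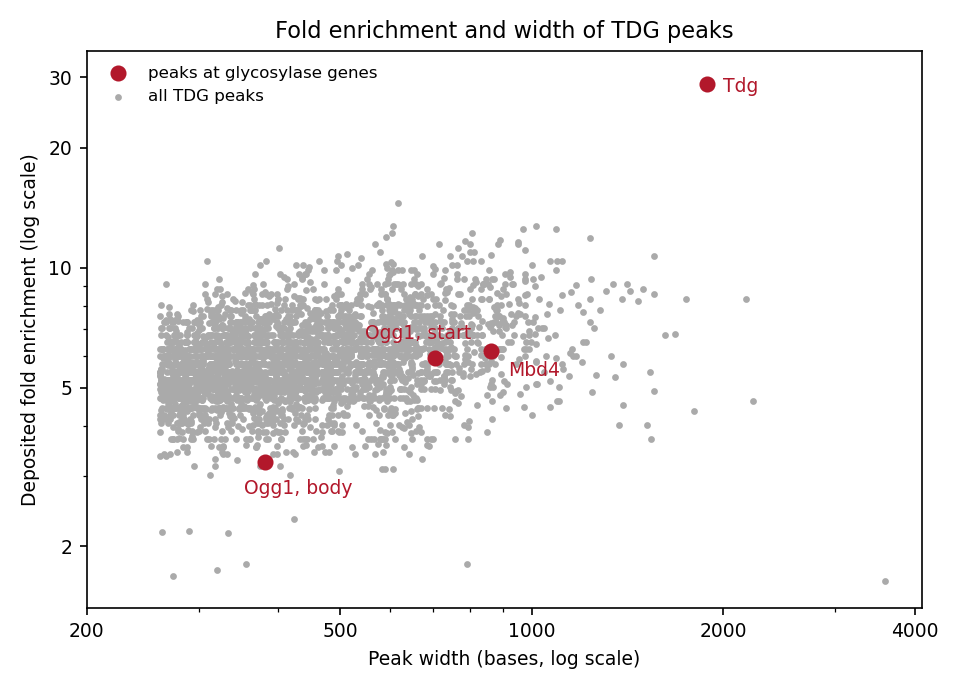
Deposited fold enrichment against width, both on log scales, for the peaks at glycosylase genes (red) and for all 3410 TDG peaks (grey). The Tdg peak (28.9-fold, 1883 bases) stands alone at the upper right, the Mbd4 and Ogg1 start peaks lie at the middle height of the cloud and toward its wide side, and the Ogg1 body peak (3.24-fold) lies near its lower edge.

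The 7 members without a TDG peak differed in how far away the nearest one was. Smug1 came closest, with a summit 3863 bases above its upper end (4.41-fold, 405 bases wide), and Smug1 was also the protein-coding gene nearest to that summit. The nearest summit to Neil1 was 11668 bases below the gene and belonged to the other end of its neighbour Man2c1, a mannosidase gene (6.51-fold, 690 bases wide). For Nthl1 the gap was 82.8 kb, for Ung 221 kb, for Mutyh 250.2 kb and for Neil2 421 kb. Neil3 lay farthest, 5912 kb from the nearest TDG summit. Between Mbd4 at 238 bases outside its gene and Smug1 at 3863 bases, no member fell near the 1 kb limit.

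The share of genes with a TDG peak differed between the chromosomes of the members. Mbd4 and Ogg1 are both on chromosome 6, where the rule assigned a TDG peak to 30.9% of protein-coding genes, the highest share of any chromosome. Among chromosomes with at least 20 peaks, chromosome 6 also had the highest share over a local background raised above 2.56 scaled reads. This was 83.9% of its 434 TDG peaks, against 46.7% of all TDG peaks. The median local background there was 3.28 scaled reads, against 2.56 over all peaks. Within chromosome 6, the Mbd4 peak lay above 59.4% of the peaks in fold enrichment and above 92.6% in width, and the Ogg1 start peak lay above 84.6% in width. Tdg is on chromosome 10, where 13.3% of genes had a peak. Neil2 and Neil3, which had none, are on chromosomes 14 and 8, where 3.29% and 6.33% of genes had one. The shares on the chromosomes of Mutyh, Ung, Neil1, Nthl1 and Smug1 were 11.4%, 13.0%, 14.9%, 19.1% and 27.2%. Neil1, Nthl1 and Smug1 thus had no peak on chromosomes with a higher share than that of Tdg. Away from chromosome 6, 1 of the 8 members (Tdg) had a TDG peak. Over all chromosomes the rule assigned one to 3237 of 21887 protein-coding genes, 348 of them among the 1126 of chromosome 6. A count of 1 among 8 is too small to set these members apart from that background. The part of the chromosome in these calls was not tested.

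Other base excision repair genes also held TDG peaks, none of them of the height of Tdg. Of 23 such genes, which are Mpg, a further glycosylase gene outside the 10 members, and genes that act after the glycosylases or assist them, 5 (21.7%, exact 95% interval 7.46 to 43.7%) had a TDG peak, against 14.8% of all protein-coding genes. The strongest was at Aplf, which encodes a histone chaperone of strand break repair (8.29-fold, 730 bases wide, 36 reads with an interval of 25.2 to 49.8). Pold1, the catalytic subunit of DNA polymerase delta, had a 6.25-fold peak 40 bases upstream of its start that also lay at an end of Nr1h2. Polg, the mitochondrial DNA polymerase gene, had a 5.99-fold peak in its body, 120 bases downstream of an annotated start. Hmces, whose product shields abasic sites in single-stranded DNA, had a 5.75-fold peak 9 bases upstream of its start, also at an end of Copg1. Aptx, which removes AMP from aborted ligations, had the weakest of the 5 (4.85-fold). Aplf and Hmces are on chromosome 6 as well. On other chromosomes 3 of the 21 genes of this list had a peak. The background over all chromosomes was 3237 of 21887 protein-coding genes, 348 of them among the 1126 of chromosome 6.

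The other 18 genes of this list had no TDG peak. Among these were Mpg, the alkyladenine glycosylase gene, the abasic endonuclease gene Apex1, the gap-filling polymerase gene Polb, and the genes of the scaffold Xrcc1, the ligases Lig1 and Lig3, and the poly(ADP-ribose) polymerases Parp1 and Parp2. Tdp1 fell just outside the rule, with a 5.14-fold summit 1089 bases below its lower end. A second list held 11 genes of the nucleotide pool and of deaminase families. Of these, 2 had a TDG peak (18.2%, exact 95% interval 2.28 to 51.8%), against 14.8% of all protein-coding genes. They were Itpa, the inosine triphosphatase gene (7.70-fold, at an end shared with Ddrgk1), and Nudt5, an ADP-sugar hydrolase gene (4.70-fold, at an end shared with Cdc123). The Itpa summit lay 3456 bases upstream of the annotated Itpa start, and the Nudt5 summit lay 295 bases downstream of the Nudt5 start. None of the APOBEC family genes Apobec1, Apobec2 and Apobec3 had one. Apobec1 is on chromosome 6, where 30.9% of protein-coding genes had one.

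**Figure D3:**
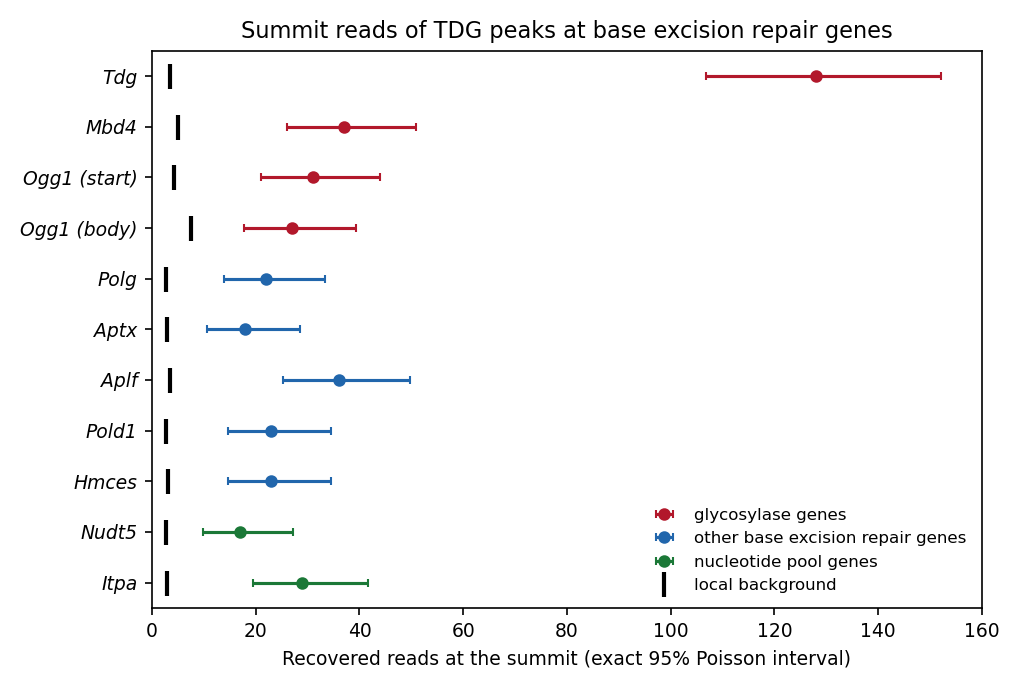
Recovered reads at the summit of each TDG peak at a gene of the glycosylase (red), other base excision repair (blue) and nucleotide pool (green) lists, with exact 95% Poisson intervals for counting error. Black ticks are the local background of the peak on the same read scale. The Tdg summit (128 reads, interval 107 to 152) does not overlap any other interval, and the intervals of all other peaks end at or below 51.0 reads.

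No glycosylase gene had a p53 peak within 10 kb. The same rule assigned 1 of the 126 p53 peaks or more to 0.489% of all protein-coding genes, so a count of 0 among 10 genes is close to that background. The nearest p53 peak to any member lay 54.9 kb above Neil1 (chromosome 9, 57203579 to 57203813, 16.6-fold). The next were 287 kb below Ogg1 (8.23-fold) and 747 kb below Smug1, the last being the 45.6-fold peak at Sp1. Tdg lay 2947 kb, Mbd4 2801 kb and Nthl1 2749 kb from the nearest p53 peak, and for Neil3, Mutyh and Ung the distance was between 17010 and 32122 kb. Chromosome 14, which carries Neil2, had no p53 peak. Of the 23 other base excision repair genes none had a p53 peak within 10 kb, and of the 11 nucleotide pool and deaminase genes 1 had one. This was Tyms, the thymidylate synthase gene, with a 12.1-fold peak inside the gene and no TDG peak.

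The printed promoters of the 3 genes with a TDG peak were rich in CG dinucleotides, but so were promoters of members without one. RefSeq promoter entries matched 9 of the 10 members with 10 annotated starts, 2 of them for Mutyh. In the 250 bases before the start, Mbd4 had 22 CG dinucleotides, Ogg1 had 20 and Tdg had 19. The 7 promoters without a TDG summit within 1 kb had between 2 and 27. The highest of these were the lower start of Mutyh with 27 and Nthl1 with 23, followed by Smug1 with 14, Neil1 with 12, Ung with 10, Neil3 with 8 and the upper start of Mutyh with 2. Over the 32851 promoters of the table, those with a TDG summit within 1 kb of the start (9.63%) had a median of 19 CG dinucleotides (quartiles 14 and 25), and the others had a median of 5 (quartiles 2 and 13). The counts at Tdg, Ogg1 and Mbd4 thus lay near the middle of promoters with a TDG summit, as did that of Nthl1, which had none.

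**Figure D4:**
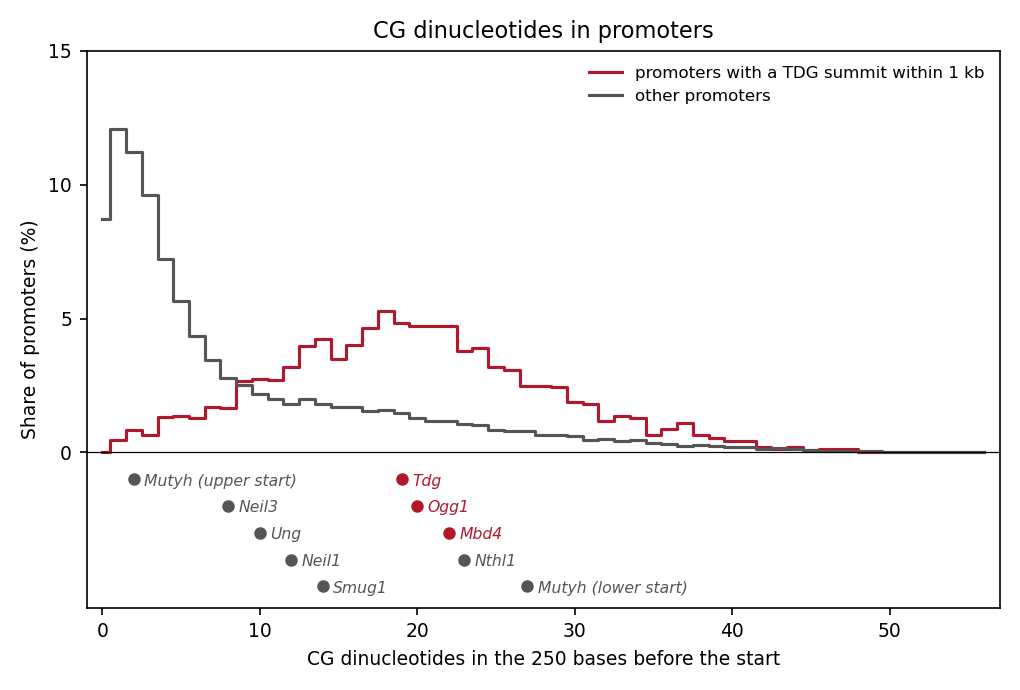
Share of promoters by the number of CG dinucleotides in the 250 bases before the start, for promoters with a TDG summit within 1 kb (red line) and for other promoters (dark grey line). Dots under the axis mark the promoters of the glycosylase genes, red with a TDG summit within 1 kb and grey without; their height only separates the labels. Tdg (19), Ogg1 (20) and Mbd4 (22) fall near the median of 19 of the red line, and Nthl1 (23) and the lower start of Mutyh (27) lie above them without a summit.

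The Tdg promoter was the only member promoter with the palindrome TGACGTCA, the cAMP response element to which CREB family proteins are known to bind. It lay 135 to 128 bases before the start. It was found in 1.55% of all promoters, in 3.70% of those with a TDG summit within 1 kb of the start and in 1.32% of the others. The shorter TGACG, which this palindrome contains on both strands, was found in 17.8% of all promoters. Of promoters with a TDG summit 31.6% had it, and of the others 16.3%. The 5 member promoters with it were those of Tdg, Mbd4, Smug1, Neil1 and the lower start of Mutyh. Tdg was also the only member with CACGTG, the E-box bound by MYC and USF proteins, at 28 to 23 bases before the start. CACGTG was found in 6.02% of all promoters, with 8.53% of those with a TDG summit and 5.75% of the others.

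Other matches were spread over members with and without a peak. GGGCGG, the core of the SP1 site, was found at Mbd4, Ogg1, Nthl1, Ung and the lower start of Mutyh and in 32.7% of all promoters. It was more frequent in promoters with a TDG summit (70.7%) than in the others (28.7%), yet it was not matched in the Tdg window. CCGGAAG, an ETS family site, occurred in a pair of matches at Ogg1 and another pair at Nthl1, against 6.91% of all promoters. Its share was 15.5% in promoters with a TDG summit and 5.99% in the others. CCAAT was matched in 7 of the 10 member promoters and in 33.8% of all promoters (41.1% with a TDG summit, 33.1% of the others). TATAAA was matched only at Neil1 (12.4% of all promoters, 3.45% of those with a TDG summit and 13.3% of the others). Neither the NRF1 site (0.782% of all promoters) nor the p53 decamer (7.13%) was matched in any member promoter. In promoters with a TDG summit and in the others, the NRF1 site had shares of 2.09% and 0.643%. Those of the p53 decamer were 6.01% and 7.25%. These matches describe the letters of the windows and do not show binding.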

How the data were processed

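Peaks of 2 ChIP-seq libraries of Tdg HA knockin B16 cells were used, from the HA and the p53 antibody. Per the submitters' processing notes, the tools included MACS2, Bowtie2, Trim Galore, deepTools, ChIPseeker and Picard and the build was mm10, with no versions. Neither the control library nor the calling threshold is stated in the sources used here. The authors deposited a fold enrichment (a ratio of summit to local background), a −log10 p and a −log10 q for each peak, and a deposited score that was the −log10 q times 10 without its decimals in all 3410 TDG and 126 p53 peaks.

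Summit reads and local background were solved jointly from the deposited fold enrichment and −log10 p, taking MACS2's definitions (a Poisson p, and 1 read added to both terms of the ratio). The scale of the TDG reads was taken as 0.924, the step that brought the summits closest to whole multiples. Where several solutions existed, the one nearest to whole reads was kept. Every TDG summit was then a whole number of reads within 0.05, an outcome that these choices favour. Depth of the libraries is unknown, since the lists hold no totals. The median TDG summit had 24 reads. The solver was tested on data simulated with the same formulas, so that test cannot check the formulas themselves. Gene spans and annotated starts are those of RefSeq on GRCm38.p6. Intervals are exact Poisson or exact binomial 95% intervals. With 1 library a group there was no test between conditions, and lists were described beside the share of all protein-coding genes.

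All 10 members are named, as are listed genes with a peak, the 3 next peaks by fold enrichment, the 3 nearest by width at gene ends, and genes that share a member's peak. Genes named as lacking a peak, Tdp1 and the wider peaks were chosen after their values were seen. Of the listed genes outside the members, 2 are not reported here. The members and lists were chosen with earlier results of these data known. Alternatives were another window, gene ends only, any base of the peak, a minimum −log10 q of 5, a minimum fold enrichment equal to the list's median, −log10 q or reads in place of fold enrichment, placed chromosomes or gene-end peaks only, a 50 kb distance for p53, and distance to the p53 summit. Assignment by annotated start was chosen after seeing the data. Python 3.11.15, numpy 2.4.6, pandas 2.3.3, scipy 1.17.1 and matplotlib 3.10.9 were used.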

Additional observations from a re-analysis of the deposited data

How the results depend on the processing

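The count of 3 glycosylase genes with a TDG peak was the same under all 6 alternatives run for it. The count of 0 with a p53 peak was the same at 50 kb and by the summit. With gene ends only, 12.3% of all protein-coding genes had a TDG peak. For the other alternatives the share of all protein-coding genes is not given, so the counts in this paragraph are not set against a background there. The other base excision repair genes with a peak numbered between 4 and 6. The nucleotide pool and deaminase genes with a peak numbered 1 in place of 2 with a −log10 q of at least 5, which leaves fewer peaks. By annotated start they also numbered 1, without Itpa. The ratio of Tdg to the next member was 9.63 on the −log10 q scale in place of 4.67, and 3.46 in summit reads. Tdg ranked 2 by −log10 q in place of 1, behind a peak on unplaced sequence. By width it ranked 3 on placed chromosomes and 1 among gene-end peaks, in place of 4, because the wider peaks were left out. The Tdg peak stayed higher than that of the next member on each scale used. No paired analysis was possible because each group holds 1 library, and for the same reason no replicate could be left out. A summit of 24 reads limits the precision of a typical peak, and the depth of the libraries is unknown.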

Other observations

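Of the 10 glycosylase genes, 8 had another protein-coding gene with an end within 1 kb of theirs. The share of all protein-coding genes with such a neighbour is not given, so this count has no background. Of the 10 such neighbours, 3 had a TDG peak inside them or within 1 kb of an end, against 14.8% of all protein-coding genes. Of these 3, Camk1 was counted through the Ogg1 body peak alone, and 1 of the 2 peaks of Ift122 was that of Mbd4. The starts of Nthl1 and Tsc2, the tuberous sclerosis gene that restrains mTOR signalling, lie 55 bases apart on opposite strands, and neither gene had a TDG peak. The starts of Mutyh and Toe1, a deadenylase gene, lie 175 bases apart on opposite strands, again with no TDG peak at either gene. Alkbh2, which reverses alkylation of DNA bases, lies 867 bases from the lower end of Ung, with the starts of the pair 2217 bases apart on opposite strands, and neither gene had a TDG peak. At the far end of Tdg, 368 bases away, Glt8d2 had none either. Man2c1 beside Neil1 had 1 TDG peak.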
